A study of Arabidopsis thaliana with 6 samples.

Results

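Dark-grown wild-type seedlings of Arabidopsis thaliana fed with kynurenine were compared with untreated ones, in 4 of the 6 RNA-seq libraries of the series, chosen by their labels. The 2 Col_Kyn libraries come from wild-type Col-0 on MS, a mineral growth medium, with kynurenine added. The labels state 25 mM, and no other source used here allows that unit to be checked. The 2 Col_MS libraries come from Col-0 on MS alone. Whole seedlings of both groups were 3 days old and were grown at 22 °C in darkness, after 3 days of imbibition at 4 °C and 3 to 4 h of light. The 2 remaining libraries, wei8tar2_MS, come from seedlings of the same age on MS whose genotype the labels give as wei8-/- tar2+/-. They share the estimate of the spread in the statistical model, and their levels are given only as a further reference. The labels call the repeats of a group biological and name no shared day. The p-values rest on a spread estimated over all 6 libraries and not only over the 4 compared. The wei8tar2_MS pair lay closest together. At a set minimum level 1 of 12479 genes was more than 2-fold apart in it, beside 191 of 12615 in Col_Kyn and 255 of 12822 in Col_MS.

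L-kynurenine is known to inhibit TAA1 and its TAR relatives, the aminotransferases that turn tryptophan into indole-3-pyruvic acid on the main route to the auxin indole-3-acetic acid. A seedling in the dark is etiolated: it lengthens its hypocotyl, lives on stored oil and sugars and makes few proteins of photosynthesis. Auxin in such seedlings is known for its part in hypocotyl elongation, in the root meristem and in root hair growth. The comparison asks which messenger RNAs differed across all genes when the compound was supplied.

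Levels are given as CPM, the reads of a gene scaled to a common library size, for replicates 1 and 2 in that order. Reads in tested genes numbered 26740665 and 28233782 in the Col_MS libraries. They numbered 31807206 and 18138087 in the treated libraries and 26934672 and 25121827 in wei8tar2_MS. Markers of the labelled material were present throughout: PORA, the protochlorophyllide reductase of dark-grown seedlings, had 1313 and 1408 CPM in Col_MS and 1097 and 1382 CPM in Col_Kyn, and PHYA, the phytochrome that accumulates in darkness, 892 and 888 CPM in Col_MS and 923 and 985 CPM in Col_Kyn. Replicates did not lie equally close together. On the component that carried 46.8% of the variance of the 6 libraries, Col_MS lay at -62.8 and -19.5 and Col_Kyn at 3.29 and 30.8. Where leaving out 1 Col-0 library moved the median of a list by over 1.5 times, the median without that library is given beside it.

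By edgeR's test few genes were called, and most of them differed by at least 2-fold. With 2 libraries per group the smallest log2 fold change called was 0.75 in size, so the count cannot tell how many genes changed less. Of 21326 genes tested, 78 (0.366%) differed between Col_Kyn and Col_MS at an adjusted p under 0.05 in edgeR's quasi-likelihood test. Of these, 47 (0.22%) fell and 31 (0.145%) rose with kynurenine. Among the 31, TPPF and AT4G12432 had identical counts in every library, so 1 signal is counted under both. The median log2 fold change was -2.0 among the genes that fell and 1.40 among those that rose, and 70 of the 78 differed by at least 2-fold. Differences of 4-fold or more were found for 24 genes that fell and 7 that rose. Over all tested genes the 5th and 95th percentiles were -0.76 and 0.60, with a median of -0.02. At an unadjusted p under 0.05 there were 3624 genes (17%), 1721 (8.07%) higher and 1903 (8.92%) lower, and these shares are the background of the unadjusted counts below.

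In all 78 genes both Col_Kyn libraries lay on the same side of both Col_MS libraries, as they did in 43.6% of all tested genes. Among the 78 genes, sks15 was the only one whose Col_Kyn replicates were more than 2-fold apart. The number of calls depended on the libraries and on the tool. DESeq2, run on the same 6 libraries, called 750 genes (3.52%), with 426 (2%) higher and 324 (1.52%) lower, and these included all 78. edgeR called 0 genes without Col_Kyn replicate 2, without either wei8tar2_MS library, or in a fit of the 4 Col-0 libraries alone. In these fits between 2380 and 3083 genes had an unadjusted p under 0.05, and limma-voom on all 6 libraries called 50. edgeR called 40 genes without Col_MS replicate 1, 992 without Col_MS replicate 2 and 38 without Col_Kyn replicate 1. Each call below is therefore lost under at least 4 of these settings. Of the 49 called genes that the naming rule selects, none changed direction in any of them.

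**Figure D1:**
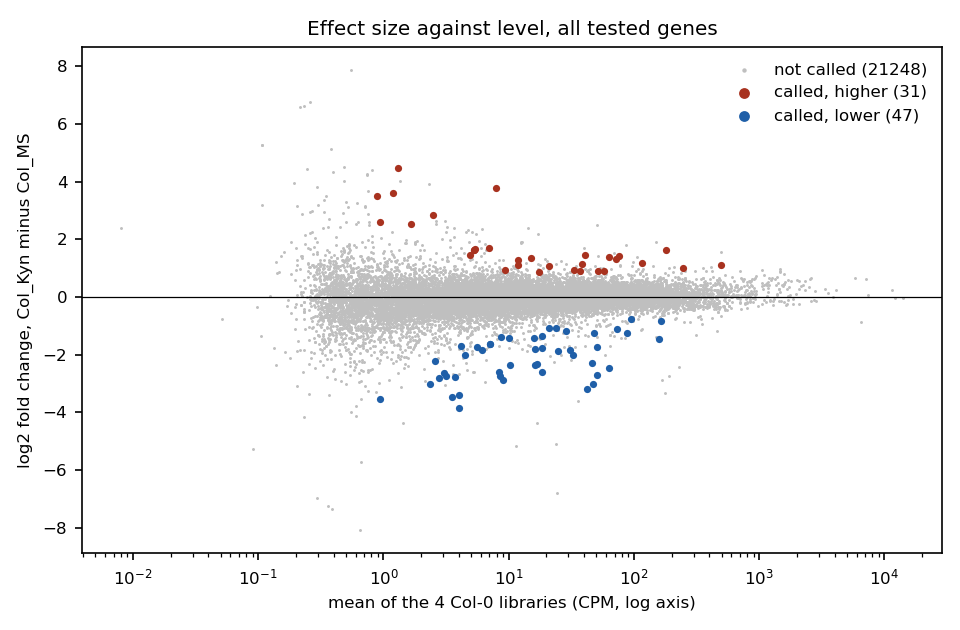
Log2 fold change of each tested gene (Col_Kyn minus Col_MS, vertical axis) against its mean level in the 4 Col-0 libraries in CPM (horizontal log axis). The coloured points are the 47 genes called lower and the 31 called higher, and all but the smallest lie outside the range from -0.76 to 0.60 between the 5th and 95th percentiles of the tested genes.

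Among the genes that fell were several families of sugar-binding and secreted proteins. Jacalin-type lectins bind sugars, and 7 of 29 tested genes of this kind fell while none rose, beside 0.22% of all tested genes that fell. This family was set apart after gene values had been seen, so its count is a description. AT1G52070, a mannose-binding lectin gene at chr1:19364809-19366925 (TAIR10.1), had 91.3 and 60.1 CPM in Col_MS and 10.6 and 5.55 CPM in Col_Kyn. Both treated libraries lay far below both untreated ones, a 9.16-fold fall (log2 fold change -3.19 ± 0.32, edgeR adjusted p = 0.0217). Here and throughout, ± is the standard error implied by edgeR's test in the fit of all 6 libraries, and n is 2 libraries per group. The consecutive loci AT1G52060 and AT1G52050 fell with it. AT1G52060 went from 38.6 and 25.1 CPM to 6.63 and 3.55 CPM (-2.61 ± 0.31, edgeR adjusted p = 0.0272). AT1G52050 went from 19.5 and 15.1 CPM to 4.33 and 2.23 CPM (-2.35 ± 0.28, edgeR adjusted p = 0.0274). In these 3 genes Col_Kyn replicate 2 was the lowest of the 4 libraries, and where copies are nearly identical the way reads were counted can split them, so the share of each is uncertain.

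The other lectins that fell lie elsewhere in the genome, and the treated replicates of most were closer together. AT1G33790 had 73.3 and 62.1 CPM in Col_MS and 28.7 and 27.8 CPM in Col_Kyn (-1.26 ± 0.12, edgeR adjusted p = 0.0217). AT5G35940 had 25.7 and 20.2 CPM in Col_MS and 8.81 and 8.47 CPM in Col_Kyn (-1.41 ± 0.16, edgeR adjusted p = 0.0264). AT2G25980 and the myrosinase-binding-like gene MLP-300B also fell, with log2 fold changes of -1.89 ± 0.26 and -1.07 ± 0.16 (edgeR adjusted p = 0.0414 and 0.0488). The most abundant lectin of the list did not pass the test: JAL34 had 1414 and 1571 CPM in Col_MS and 1692 and 1957 CPM in Col_Kyn (0.29 ± 0.14, edgeR adjusted p = 0.331). The median over the 29 tested lectins was 0.03, beside -0.02 over all tested genes, with 15 positive and 14 negative values. Without Col_MS replicate 1 or Col_MS replicate 2 the median was 0.15 or -0.05, and without Col_Kyn replicate 1 or Col_Kyn replicate 2 it was -0.46 or -0.00651.

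Genes that the annotation names late embryogenesis abundant-like or -related, also set apart after values had been seen, made up another group of falls. All 6 tested members had negative values, with a median log2 fold change of -2.84, and 4 of them fell, beside 0.22% of all tested genes. AT5G54370, at chr5:22075277-22076819, had 99.5 and 67.1 CPM in Col_MS and 12.2 and 8.24 CPM in Col_Kyn, an 8.03-fold fall (log2 fold change -3.01 ± 0.25, edgeR adjusted p = 0.0215). AT4G27400 went from 7.75 and 5.13 CPM to 0.577 and 0.572 CPM (-3.47 ± 0.33, edgeR adjusted p = 0.0217), and AT3G19430 from 19.6 and 12.1 CPM to 2.56 and 1.66 CPM (-2.87 ± 0.30, edgeR adjusted p = 0.0264). In these 3 genes every treated library lay below every untreated one, and the medians of the list without 1 Col-0 library ran from -3.16 to -2.40. The family takes its name from likeness to proteins of maturing seeds, and its role in seedlings is not given in the sources used here.

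Class III peroxidases are secreted haem enzymes that act on phenolic compounds of the cell wall. Of 61 tested members edgeR called 3 lower and none higher, beside 0.22% and 0.145% of all tested genes, while DESeq2 called 8 lower and 7 higher, beside 1.52% and 2%. AT2G38390 had 12.6 and 16.8 CPM in Col_MS and 2.15 and 2.29 CPM in Col_Kyn, a 6.64-fold fall (log2 fold change -2.73 ± 0.22, edgeR adjusted p = 0.0215). AT3G49960 went from 18.2 and 35.8 CPM to 6.15 and 4.12 CPM (-2.37 ± 0.33, edgeR adjusted p = 0.0424). AT2G39040 went from 12.6 and 16.3 CPM to 4.999 and 5.95 CPM (-1.41 ± 0.18, edgeR adjusted p = 0.0340). In AT3G49960 the second untreated replicate was well above the first, and both were above the treated libraries. The median over all tested peroxidases was -0.05, with 0.12 and -0.01 without the first or second Col_MS library and -0.12 and 0.05 without the first or second Col_Kyn library.

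Further enzymes, regulators and carriers fell. The multicopper-oxidase-like gene sks15 (SKU5-similar) had 6.91 and 7.87 CPM in Col_MS and 1.03 and 0.229 CPM in Col_Kyn (-3.39 ± 0.47, edgeR adjusted p = 0.0424), with its second treated library the lowest. Among 54 tested GDSL-type lipases, a family of esterases listed after values were seen, AT5G14450 and GLL22 fell and AT2G23540 rose. These are 2 and 1 of 54 genes, beside 0.22% and 0.145% of all tested genes. GLL22 was steady within the treated group, with 114 and 88.9 CPM in Col_MS and 46.5 and 46.3 CPM in Col_Kyn (-1.13 ± 0.13, edgeR adjusted p = 0.0264). BS1, which belongs to the basic helix-loop-helix family of transcription factors, went from 7.24 and 5.55 CPM to 1.86 and 2.06 CPM (-1.71 ± 0.23, edgeR adjusted p = 0.0414). AT4G15160, of the lipid-transfer and albumin-like family, had a narrow spread, with 213 and 208 CPM in Col_MS and 119 and 119.5 CPM in Col_Kyn (-0.82 ± 0.10, edgeR adjusted p = 0.0307). AAP2, an amino acid permease of the phloem, showed the smallest called change, from 116 and 119 CPM to 73.3 and 66.7 CPM (-0.75 ± 0.11, edgeR adjusted p = 0.0488).

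The next genes lie outside the naming rule and were chosen after their values were seen. AT1G50060, of the cysteine-rich CAP protein family, showed the largest fall of the 47, from 9.17 and 5.76 CPM to 0.545 and 0.458 CPM (-3.86 ± 0.34, edgeR adjusted p = 0.0217). The chitinase-family gene AT2G43610 had 141 and 72.5 CPM in Col_MS and 19.4 and 19.6 CPM in Col_Kyn (-2.45 ± 0.29, edgeR adjusted p = 0.0264), with untreated replicates apart and treated ones alike. Both called genes of the terpenoid cyclase family fell, AT1G33750 with -2.01 ± 0.23 and AT1G31950 with -1.85 ± 0.26 (edgeR adjusted p = 0.0264 and 0.0424). NPY4, of a protein family known from phototropism and auxin-dependent organ formation, had 4.55 and 3.76 CPM in Col_MS and 0.513 and 0.515 CPM in Col_Kyn (-3.0 ± 0.30, edgeR adjusted p = 0.0217). In each of these genes the groups did not overlap.

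Genes of root hairs, the outgrowths of root surface cells, had mostly negative values beside these falls. In the root hair list 28 of 33 tested members had negative values, with a median of -0.85 that was -0.52 without Col_MS replicate 2. edgeR called 1 lower and DESeq2 5, beside 0.22% and 1.52% of all tested genes. The summed level of the list was 637 and 808 CPM in Col_MS and 617 and 539 CPM in Col_Kyn, so it was lower in the second treated library than in either untreated one and close to the first untreated library in the other. In RNA from whole seedlings fewer cells of a kind and less RNA per cell cannot be told apart. The part of root hair cells in the falls above was not tested.

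The genes that rose were fewer and spread over several pathways. CCA1 and LHY, related Myb factors of the morning phase of the circadian oscillator, both rose. CCA1, at chr2:19245591-19248915, had 7.86 and 7.20 CPM in Col_MS and 15.5 and 16.8 CPM in Col_Kyn, a 2.14-fold rise (log2 fold change 1.10 ± 0.14, edgeR adjusted p = 0.0310). LHY, at chr1:33365-37871, had 24.96 and 26.6 CPM in Col_MS and 43.3 and 53.5 CPM in Col_Kyn (0.91 ± 0.13, edgeR adjusted p = 0.0424). Both treated libraries were above both untreated ones in each gene, and the replicates of each group were close. Of 24 tested clock genes these 2 rose and none fell, beside 0.145% and 0.22% of all tested genes. In the list 18 genes had positive values, beside 10046 of all 21326 tested genes, and the median was 0.25. DESeq2 called 4 higher, beside 2%.

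Other clock members did not pass the test and had values of both signs. The Myb relatives RVE1 and RVE2 stood at 0.75 ± 0.19 and 0.52 ± 0.18 (edgeR adjusted p = 0.137 and 0.226), and AT3G54500, which encodes LNK2, a coactivator of such factors, at 0.78 ± 0.18 (edgeR adjusted p = 0.126). The evening-phase genes BOA and GI stood at 0.09 ± 0.19 and -0.30 ± 0.28 (edgeR adjusted p = 0.847 and 0.626). In light signalling HFR1, a helix-loop-helix factor that restrains the phytochrome-interacting factors, rose from 32.3 and 39.3 CPM to 69.4 and 63.6 CPM (0.89 ± 0.13, edgeR adjusted p = 0.0458). ELIP1, an early light-induced protein like the called ELIP2, had 24.3 and 52.7 CPM in Col_MS and 130.4 and 139 CPM in Col_Kyn but did not pass (1.81 ± 0.34, edgeR adjusted p = 0.0889).

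Genes of amino acid breakdown leaned upward with few calls. THA1, a threonine aldolase, had 0.582 and 0.632 CPM in Col_MS and 5.22 and 3.49 CPM in Col_Kyn, a 7.20-fold rise (log2 fold change 2.85 ± 0.33, edgeR adjusted p = 0.0264). Of 25 tested members 2 rose, beside 0.145% of all tested genes, and 22 had positive values, with a median of 0.26. In 18 both treated libraries were above both untreated ones, beside 20.2% of all tested genes. MCCA, a subunit of the carboxylase of leucine breakdown, had 47.4 and 62.4 CPM in Col_MS and 92.7 and 94.9 CPM in Col_Kyn without passing (0.77 ± 0.17, edgeR adjusted p = 0.115). In the list of sugar-starvation and dark-inducible genes, 20 of 24 tested members had positive values with a median of 0.43 that was 0.16 without Col_Kyn replicate 2. Its called member DIN10, of the raffinose synthase family, rose from 303 and 327 CPM to 759 and 592 CPM (1.10 ± 0.16, edgeR adjusted p = 0.0488). ASN1, the asparagine synthetase of dark-kept tissue, had 50.1 and 65.7 CPM in Col_MS and 119 and 187 CPM in Col_Kyn (1.40 ± 0.22, edgeR adjusted p = 0.0656), and DIN2, a beta-glucosidase, 5.79 and 5.09 CPM in Col_MS and 27.8 and 12.2 CPM in Col_Kyn (1.90 ± 0.39, edgeR adjusted p = 0.100). Neither passed the test, although in both genes the groups did not overlap.

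The thalianol cluster makes triterpenes in roots, and 2 of its genes rose. They are 2 of 7 tested genes of the thalianol, marneral and arabidiol clusters, beside 0.145% of all tested genes. DESeq2 called 3 of the 7 higher, beside 2%. CYP705A5, at chr5:19434758-19436749, a cytochrome P450 of this pathway, had 143 and 186 CPM in Col_MS and 317 and 344 CPM in Col_Kyn (1.01 ± 0.15, edgeR adjusted p = 0.0488). CYP708A2, which hydroxylates thalianol, had 57.8 and 66.7 CPM in Col_MS and 106 and 158 CPM in Col_Kyn without passing (1.09 ± 0.19, edgeR adjusted p = 0.0797). All 7 tested genes of the thalianol, marneral and arabidiol clusters had positive values, with a median of 0.58 that was 1.21 without Col_MS replicate 2 and 1.01 without Col_Kyn replicate 1. Of 168 tested cytochromes P450 of all families, edgeR called 5 higher and none lower, beside 0.145% and 0.22% of all tested genes, and DESeq2 called 15 higher and 3 lower, beside 2% and 1.52%. CYP710A3, whose family desaturates sterols, went from 0.218 and 0.316 CPM to 1.70 and 1.54 CPM (2.58 ± 0.38, edgeR adjusted p = 0.0488). A count of 0 would allow up to 0.106 to 0.112 CPM in the Col_MS libraries (3 reads, counting error only), so the untreated level of CYP710A3 lies close above the limit of detection.

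Other rises concerned single genes. MES1, a methyl esterase, rose from 21.1 and 24.4 CPM to 45.9 and 40.2 CPM (0.92 ± 0.12, edgeR adjusted p = 0.0387). The protein kinase gene WNK7 rose from 6.33 and 6.43 CPM to 11.98 and 12.4 CPM (0.93 ± 0.13, edgeR adjusted p = 0.0424), and the alpha/beta-hydrolase gene AT2G30550 from 39.4 and 41.9 CPM to 74.3 and 76.9 CPM (0.89 ± 0.11, edgeR adjusted p = 0.0264). Replicates of these 3 genes were close in both groups. FRD3, a citrate exporter that keeps iron mobile in the xylem and was chosen after its values were seen, rose from 12.8 and 11.9 CPM to 23.7 and 21.6 CPM (0.88 ± 0.12, edgeR adjusted p = 0.0387). In the list of iron acquisition edgeR called 0 of 25 tested genes, and 7 had an unadjusted p under 0.05, beside 17% of all tested genes. DESeq2 called 2 higher and 1 lower, beside 2% and 1.52%. Of the 31 genes that rose, 6 had a mean under 4 CPM over the 4 libraries, among them the MADS-box gene AGL38, also chosen after its values were seen, with 0.182 and 0.176 CPM in Col_MS and 2.53 and 1.89 CPM in Col_Kyn (3.61 ± 0.43, edgeR adjusted p = 0.0264).

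**Figure D2:**
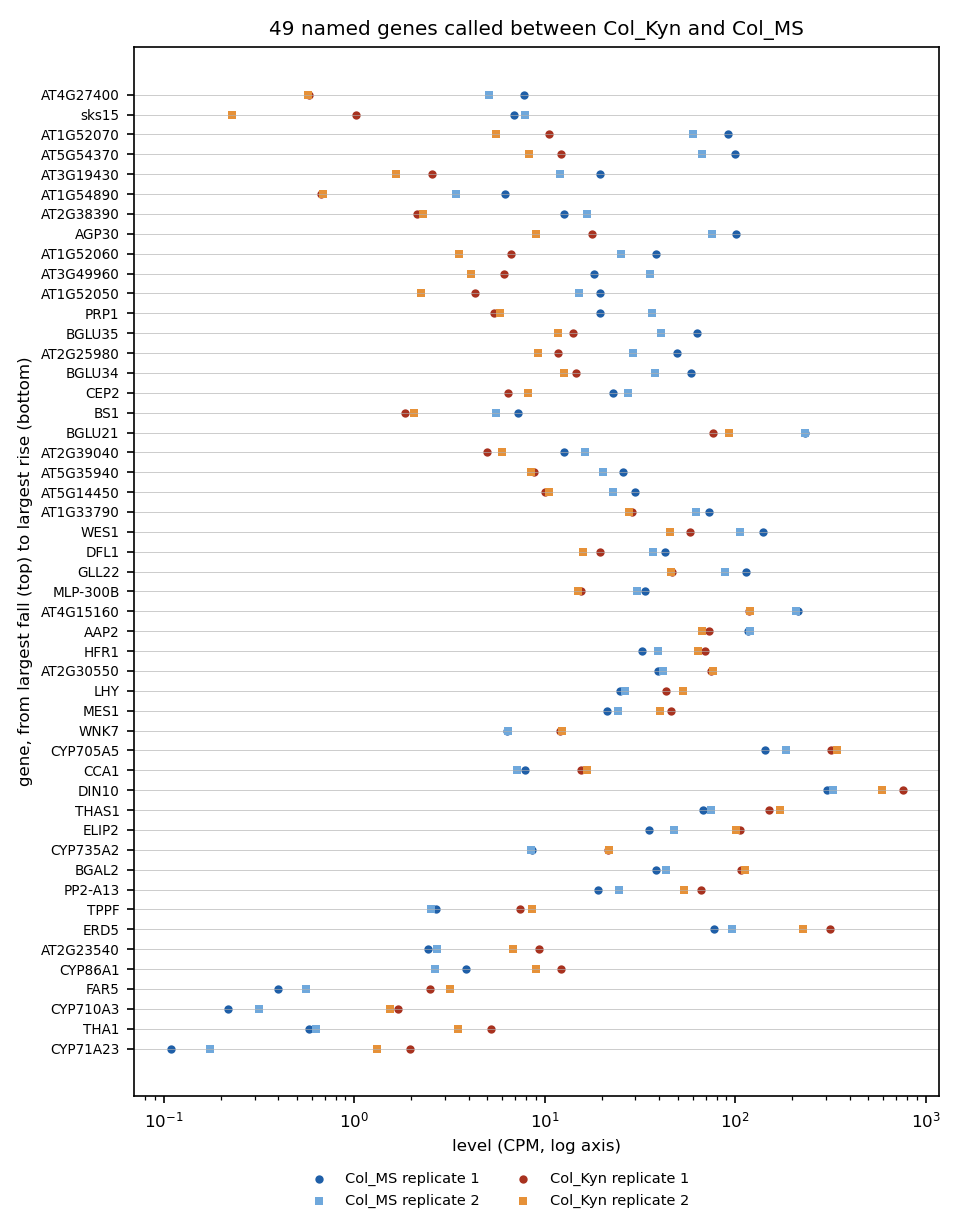
Level in each of the 4 Col-0 libraries, in CPM on a log axis, of the 49 called genes that the naming rule selects, 1 row per gene. The marks of the Col_MS and Col_Kyn libraries do not overlap in any row, from AT1G52070 among the falls to THA1 among the rises.

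Several tissue and pathway lists were displaced in 1 direction with few calls. Suberin is the waxy polyester of the root endodermis, and 17 of 19 tested genes of its list had positive values, with a median of 0.98. FAR5, a fatty acyl reductase that makes its fatty alcohols, rose from 0.400 and 0.562 CPM to 2.50 and 3.20 CPM (2.54 ± 0.32, edgeR adjusted p = 0.0334), and the fatty acid hydroxylase gene CYP86A1 also rose. DESeq2 called 6 members higher, beside 2% of all tested genes. The size of the shift differed between the treated libraries, since the median was 1.34 without Col_Kyn replicate 1 and 0.40 without Col_Kyn replicate 2. GPAT5, an acyltransferase of suberin monomers, had 1.24 and 2.18 CPM in Col_MS and 3.36 and 13.6 CPM in Col_Kyn (2.26 ± 0.62, edgeR adjusted p = 0.154), and ABCG6, a transporter of the barrier, 2.04 and 6.95 CPM in Col_MS and 6.51 and 41.6 CPM in Col_Kyn (2.39 ± 0.83, edgeR adjusted p = 0.222). In both genes the second treated library was far above the others and neither passed the test.

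The Casparian strip is the lignin barrier of the same cell layer, and here the treated replicates were alike. All 9 genes had positive values with a median of 0.49, which was 0.49 without Col_Kyn replicate 1 and 0.53 without Col_Kyn replicate 2. By edgeR 0 passed, with 7 higher at an unadjusted p under 0.05, beside 8.07% of all tested genes, and DESeq2 called 5 higher, beside 2%. CASP1, a membrane scaffold of the strip, had 116 and 129 CPM in Col_MS and 178 and 185 CPM in Col_Kyn (0.57 ± 0.11, edgeR adjusted p = 0.0976). ESB1, a dirigent protein needed for its lignin, had 267 and 292 CPM in Col_MS and 436 and 439.8 CPM in Col_Kyn (0.65 ± 0.12, edgeR adjusted p = 0.0877). In 7 of the 9 genes both treated libraries were above both untreated ones, beside 20.2% of all tested genes, and the summed level of the list was 702 and 807 CPM in Col_MS and 1079 and 1096 CPM in Col_Kyn.

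Flavonoids are phenolic pigments of the epidermis, and all 14 tested genes of their synthesis had positive values, with a median of 0.68 that was 0.39 without Col_Kyn replicate 2 and 1.08 without Col_MS replicate 2. By edgeR 0 passed, with 5 higher at an unadjusted p under 0.05, beside 8.07% of all tested genes, and DESeq2 called 4 higher, beside 2%. TT4, the chalcone synthase at the entry of the pathway, had 260.4 and 285 CPM in Col_MS and 357 and 477 CPM in Col_Kyn (0.61 ± 0.17, edgeR adjusted p = 0.159). UGT78D2, a flavonoid glucosyltransferase, had 12.6 and 16.8 CPM in Col_MS and 24.9 and 25.4 CPM in Col_Kyn (0.77 ± 0.17, edgeR adjusted p = 0.108). In both genes the treated libraries were above the untreated ones. The phenylpropanoid and lignin list, of which only the first steps lie upstream of this pathway, had 16 of 16 positive values and a median of 0.22.

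Aquaporins are the water channels of membranes, and 24 of 30 tested members had positive values, with a median of 0.44. edgeR called 0 of them, 11 were higher, beside 8.07% of all tested genes, and 3 lower at an unadjusted p under 0.05, and DESeq2 called 8 higher and 2 lower, beside 2% and 1.52%. DELTA-TIP, a channel of the vacuole membrane, had 849 and 1219 CPM in Col_MS and 1778 and 2032 CPM in Col_Kyn (0.88 ± 0.19, edgeR adjusted p = 0.105). PIP1C, a channel of the plasma membrane, had 766 and 1210.2 CPM in Col_MS and 1869.7 and 2026 CPM in Col_Kyn (0.98 ± 0.22, edgeR adjusted p = 0.115). TIP4;1 had the opposite sign, with 52.7 and 35.2 CPM in Col_MS and 25.3 and 22.9 CPM in Col_Kyn (-0.87 ± 0.18, edgeR adjusted p = 0.105). Col_MS replicate 1 was above replicate 2 for 8 of the 30 channels, and the median was 0.26 without Col_MS replicate 1 and 0.70 without Col_MS replicate 2.

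Genes of protein synthesis stood slightly lower in nearly every member. Of 261 tested ribosomal protein genes 248 had negative values, with a median of -0.30, and of 19 ribosome biogenesis genes all 19 did, with a median of -0.34. edgeR called 0 of the ribosomal protein genes, 128 were lower at an unadjusted p under 0.05, beside 8.92% of all tested genes, and DESeq2 called 27 lower, beside 1.52%, and none higher. Of the biogenesis genes edgeR called 0, and 11 were lower at an unadjusted p under 0.05, beside 8.92% of all tested genes. DESeq2 called 3 of them lower, beside 1.52%. FIB2, a fibrillarin that modifies ribosomal RNA in the nucleolus, had 54.3 and 49.98 CPM in Col_MS and 32.9 and 26.2 CPM in Col_Kyn (-0.81 ± 0.13, edgeR adjusted p = 0.0656). The summed level of the ribosomal protein genes was 32338 and 35108 CPM in Col_MS and 27962 and 26788 CPM in Col_Kyn. Their median lay between -0.37 and -0.22 when any 1 Col-0 library was left out.

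Lists of defence compounds and their regulators had medians that depended on single libraries of both groups. Glucosinolates are sulfur compounds that deter herbivores, and 13 of 15 tested genes of the aliphatic kind had negative values, with a median of -0.71 that was -0.21 without Col_MS replicate 1, and -1.28 or -0.43 without the first or the second Col_Kyn library. For 20 tested genes of the indole kind and camalexin the median was -0.51, with -0.00495 and -0.84 without the first or second Col_MS library and -0.32 without Col_Kyn replicate 2. The 55 tested genes of WRKY factors, regulators of defence, had a median of -0.07, with 0.19 and -0.29 without the first or second Col_MS library and -0.22 and -0.02 without the first or second Col_Kyn library. edgeR called 0 genes of these 3 lists, and DESeq2 called 1 of the indole list and none of the others, beside 3.52% of all tested genes. At an unadjusted p under 0.05 there were 5 of 15, 7 of 20 and 11 of 55 genes, beside 17% of all tested genes. The lists of ethylene, brassinosteroid and gibberellin genes had medians of -0.02, 0.11 and -0.10, and all 3 lay between -0.09 and 0.19 when any 1 Col-0 library was left out. By edgeR 0 of their genes passed, and 4 of 33, 0 of 11 and 8 of 19 had an unadjusted p under 0.05, beside 17% of all tested genes. DESeq2 called 3 gibberellin genes and none of the others, beside 3.52% of all tested genes.

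**Figure D3:**
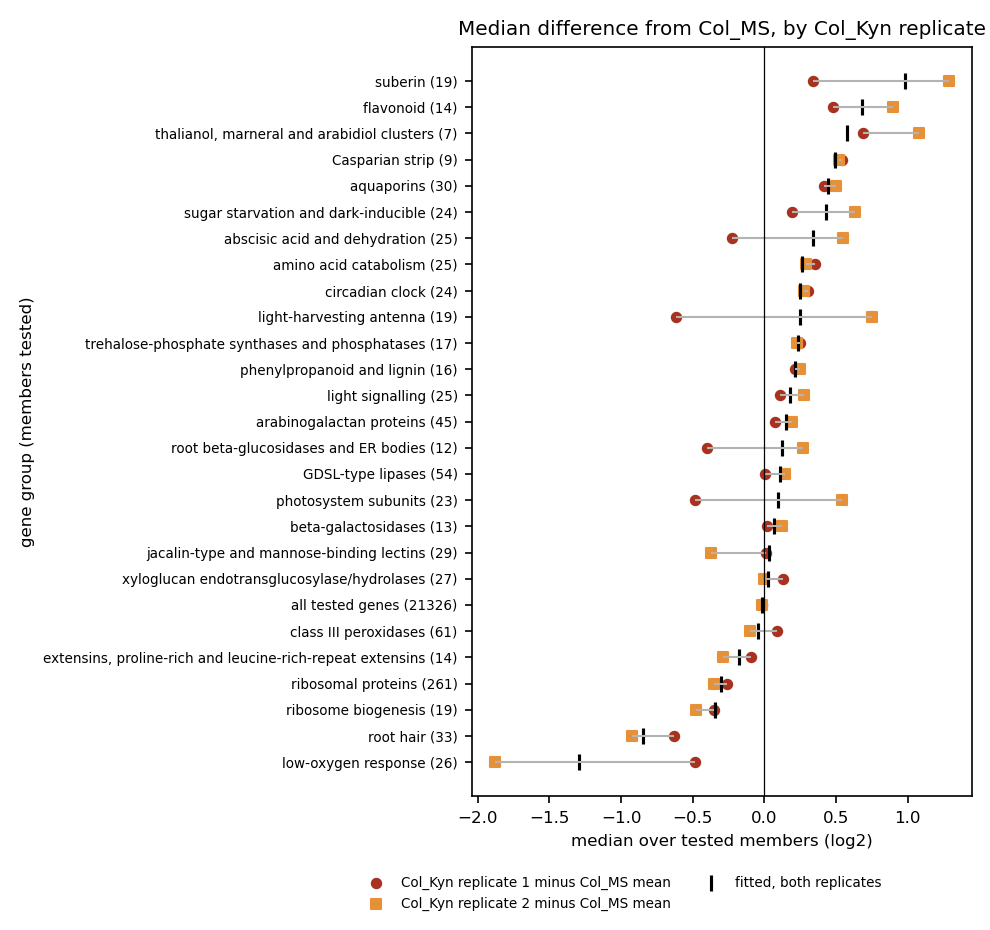
Median log2 difference from the Col_MS mean (horizontal axis) over the tested members of each gene group, for Col_Kyn replicate 1, for Col_Kyn replicate 2 and for the fit of both. The antenna, photosystem and abscisic acid groups are among those on opposite sides of 0 in the 2 replicates, as are class III peroxidases by less (0.08 and -0.10). For the Casparian strip and ribosomal protein groups the 2 replicates lie close together.

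The 2 treated libraries differed from each other in particular groups of genes. Among 12615 genes at 10 CPM or more in at least 1 of them, 191 (1.51%) were more than 2-fold apart, of which 68 (0.539%) were higher in replicate 1 and 123 (0.975%) in replicate 2. The untreated libraries were more than 2-fold apart in 255 of 12822 genes (1.99%), of which 205 (1.6%) were higher in replicate 1 and 50 (0.39%) in replicate 2, and the wei8tar2_MS libraries in 1 of 12479 (0.00801%). These are ratios of single libraries and carry no test. Measured from the Col_MS mean, 87 genes were more than 2-fold lower in both treated libraries, 33 in replicate 1 only and 118 in replicate 2 only. In the other direction 31 were more than 2-fold higher in both, 37 in replicate 1 only and 103 in replicate 2 only.

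Genes of the photosynthetic antenna and many genes of dehydration were higher in Col_Kyn replicate 2 than in replicate 1. To show what lies before the start of such genes, 250 bases upstream of the annotated start are printed for a neighbouring antenna gene pair and for a pair of dehydration genes, from 5′ to 3′ on the strand of the gene and in the TAIR10.1 build. LHB1B1 (forward strand, chr2:14524357-14524606) and LHB1B2 (reverse strand, chr2:14523569-14523818) encode light-harvesting chlorophyll-binding proteins. LEA4-5 (reverse strand, chr5:2090431-2090680) encodes a protein that protects cells on drying, and LTI65 (forward strand, chr5:21236771-21237020) is a known target of abscisic acid. Capitals mark ACGTG on either strand, the core shared by the abscisic acid response element and the G-box.
LHB1B1: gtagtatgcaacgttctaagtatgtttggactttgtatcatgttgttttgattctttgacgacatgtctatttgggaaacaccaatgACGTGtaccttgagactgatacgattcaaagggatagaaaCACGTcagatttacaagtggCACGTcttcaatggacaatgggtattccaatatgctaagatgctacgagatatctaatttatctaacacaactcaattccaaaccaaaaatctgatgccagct
LHB1B2: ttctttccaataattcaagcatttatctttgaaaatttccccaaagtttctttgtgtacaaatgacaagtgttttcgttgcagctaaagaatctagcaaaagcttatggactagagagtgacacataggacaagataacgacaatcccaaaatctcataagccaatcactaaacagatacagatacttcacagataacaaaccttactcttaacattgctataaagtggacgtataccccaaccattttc
LEA4-5: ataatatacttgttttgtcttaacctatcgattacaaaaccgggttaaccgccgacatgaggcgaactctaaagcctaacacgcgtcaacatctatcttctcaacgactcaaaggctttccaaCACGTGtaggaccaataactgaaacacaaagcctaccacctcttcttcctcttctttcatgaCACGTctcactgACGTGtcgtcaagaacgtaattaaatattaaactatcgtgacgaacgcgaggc
LTI65: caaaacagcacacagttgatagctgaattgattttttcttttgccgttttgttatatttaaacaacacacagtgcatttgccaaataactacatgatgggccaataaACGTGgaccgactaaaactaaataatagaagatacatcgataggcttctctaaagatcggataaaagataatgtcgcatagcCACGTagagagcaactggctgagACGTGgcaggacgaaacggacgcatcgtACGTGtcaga
The window of LHB1B1 holds 3 matches and that of its neighbour LHB1B2 holds 0, while LEA4-5 and LTI65 hold 4 each, where a CACGTG in LEA4-5 counts on both strands.

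Light-harvesting proteins bind chlorophyll and feed the photosystems. All 19 tested antenna genes were higher in Col_Kyn replicate 2 than in replicate 1, by a median of 1.53 on the log2 scale. In all 19 replicate 2 was the highest of the 4 Col-0 libraries, and in 17 replicate 1 was the lowest. CAB1, the most abundant, had 1871 and 2136 CPM in Col_MS and 1301 and 4796 CPM in Col_Kyn, and 3099.6 and 3224 CPM in wei8tar2_MS. LHB1B2 had 57.5 and 61.04 CPM in Col_MS and 30.7 and 246 CPM in Col_Kyn, and LHB1B1 2.44 and 3.79 CPM in Col_MS and 1.51 and 18.5 CPM in Col_Kyn. In all 3 genes the treated libraries lay on either side of the untreated pair. Members of this family are alike in sequence, so the level of each copy is uncertain, and the sum over the list was 4081 and 4605 CPM in Col_MS and 2823 and 8958 CPM in Col_Kyn.

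A mean over the treated group hides this split. The fitted median of the antenna genes was 0.24 with 19 of 19 values positive, 0.75 without Col_Kyn replicate 1 and -0.63 without replicate 2. Neither edgeR nor DESeq2 called any of them, and 1 had an unadjusted p under 0.05, beside 17% of all tested genes. Nuclear photosystem genes showed the same order, with 23 of 23 higher in replicate 2 by a median of 1.04, and so did 11 of 11 Calvin cycle genes, by 0.66. CA1, a chloroplast carbonic anhydrase, had 63.1 and 98.02 CPM in Col_MS and 36.2 and 265 CPM in Col_Kyn. PORA and PORB, the reductases of chlorophyll synthesis, differed less between the treated libraries, PORB having 1739 and 2098 CPM in Col_MS and 1413 and 2251 CPM in Col_Kyn. In the untreated pair the antenna list differed by a median of only 0.12.

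Abscisic acid is the hormone of drying and of seed dormancy. Of 25 tested genes of its list 21 were higher in Col_Kyn replicate 2 than in replicate 1, by a median over the list of 0.71. The summed level did not show this split, with 2099 and 2921 CPM in Col_MS and 3328 and 3541 CPM in Col_Kyn. By sum both treated libraries lay above both untreated ones. The 3 genes named next had low levels. LEA4-5 had 3.64 and 6.18 CPM in Col_MS and 1.31 and 17.8 CPM in Col_Kyn, and 13.1 and 14.3 CPM in wei8tar2_MS. LTI65 had 2.22 and 4.18 CPM in Col_MS and 2.24 and 13.3 CPM in Col_Kyn, and HAI1, a protein phosphatase that answers to the hormone, 4.73 and 4.88 CPM in Col_MS and 2.37 and 14.1 CPM in Col_Kyn. The second treated library was the highest Col-0 library in all 3 genes, while the first lay below the untreated pair in LEA4-5 and HAI1 and within it in LTI65. The fitted median of the list was 0.34, with 0.54 without Col_Kyn replicate 1 and -0.32 without replicate 2, and 0.16 without Col_MS replicate 1. edgeR called 0 of its members, 6 had an unadjusted p under 0.05, beside 17% of all tested genes, and DESeq2 called 2 lower, beside 1.52%. Beside these, the cell-wall peptide gene PELPK1 had 6.55 and 23.8 CPM in Col_MS and 22.5 and 151 CPM in Col_Kyn, with the second library high in both groups.

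Genes of the response to low oxygen showed the opposite order. Plant cells short of oxygen ferment sugars, and the list, written after values had been seen, holds enzymes and regulators of that response. All 26 members were higher in Col_Kyn replicate 1 than in replicate 2, by a median of 1.45, and all 26 were higher in Col_MS replicate 1 than in replicate 2, by 1.70. Col_MS replicate 1 was the highest of the 4 Col-0 libraries in 24 of the 26, and Col_Kyn replicate 2 the lowest in all 26. ADH1, the alcohol dehydrogenase of fermentation, had 706 and 185 CPM in Col_MS and 258 and 96.6 CPM in Col_Kyn, and 48.5 and 61.01 CPM in wei8tar2_MS. SUS4, a sucrose synthase, had 201 and 44.01 CPM in Col_MS and 66.4 and 24.5 CPM in Col_Kyn, and HB1, a haemoglobin induced by low oxygen, 289 and 111 CPM in Col_MS and 188 and 48.3 CPM in Col_Kyn. In ADH1 and HB1 the first treated library lay above the second untreated one, so the groups overlapped.

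For this list the comparison of groups depended on single libraries. The fitted median was -1.29, with 25 of 26 values negative, and -0.08 without Col_MS replicate 1, and -2.03 or -0.75 without the first or the second Col_Kyn library. edgeR and DESeq2 called none of the 26, 7 were lower at an unadjusted p under 0.05, beside 8.92% of all tested genes, and ADH1 stood at -1.33 ± 0.63 (edgeR adjusted p = 0.336). The summed level was 4345 and 1358 CPM in Col_MS and 1928 and 707 CPM in Col_Kyn, and 561 and 628 CPM in wei8tar2_MS. Of the 68 genes more than 2-fold higher in Col_Kyn replicate 1, 20 belong to this list, which holds 21 of the 12615 genes at 10 CPM or more. The list was written after gene values had been seen, so this overlap is a description only. Of the same 68 genes, 58 were also higher in the first untreated library, beside 10682 of all 21326 tested genes. Of the 123 genes more than 2-fold higher in Col_Kyn replicate 2, 30 belong to the antenna or photosystem lists, which hold 18 and 23 of the 12615 genes. Of the same 123 genes, 102 were also higher in the second untreated library, whereas 10682 of all 21326 tested genes were higher in the first. That background covers all tested genes and not only those at 10 CPM or more. The replicate numbers mark no shared culture in the labels, so these counts describe 4 libraries.

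**Figure D4:**
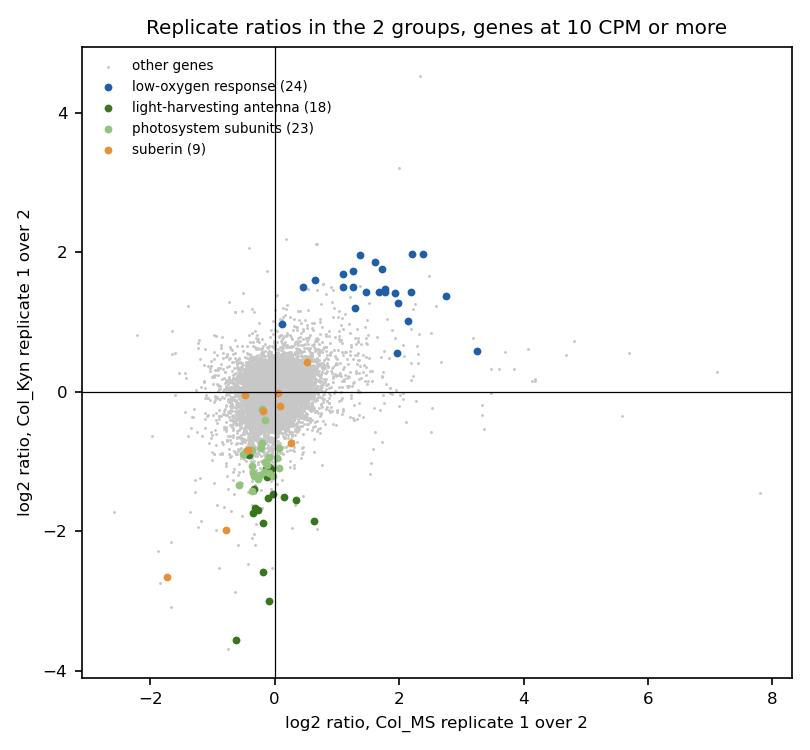
Log2 ratio of replicate 1 to replicate 2 within Col_Kyn (vertical axis) against the same ratio within Col_MS (horizontal axis), 1 point per gene at 10 CPM or more. Low-oxygen genes lie high in replicate 1 of both groups, whereas antenna and photosystem genes lie near 0 on the Col_MS axis and below 0 on the Col_Kyn axis.

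Other genes far apart between the treated libraries include 2 seed storage genes, a gene of the ferric reductase family and a P450 of iron deficiency. CRA1 and CRU3 encode seed storage proteins. CRA1 had 49.7 and 9.80 CPM in Col_MS and 17.6 and 0.686 CPM in Col_Kyn, and CRU3 18.96 and 4.71 CPM in Col_MS and 11.2 and 1.14 CPM in Col_Kyn. Both were higher in the first library of each group. Their list, of seed storage, oleosin and embryo-maturation genes, did not share this order between the treated libraries. Of its 26 tested members 14 were higher in Col_Kyn replicate 1 and 12 in replicate 2, with a median log2 ratio of 0.08. FRO5, of the ferric reductase family, had 14.2 and 8.25 CPM in Col_MS and 41.1 and 14.02 CPM in Col_Kyn, and CYP82C4, a P450 of iron deficiency, 3.86 and 1.97 CPM in Col_MS and 10.2 and 3.66 CPM in Col_Kyn, and the first treated library was the highest of the 4 in both. GRP9, a glycine-rich protein gene, had 25.4 and 33.96 CPM in Col_MS and 38.01 and 9.10 CPM in Col_Kyn, with the second treated library the lowest.

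**Figure D5:**
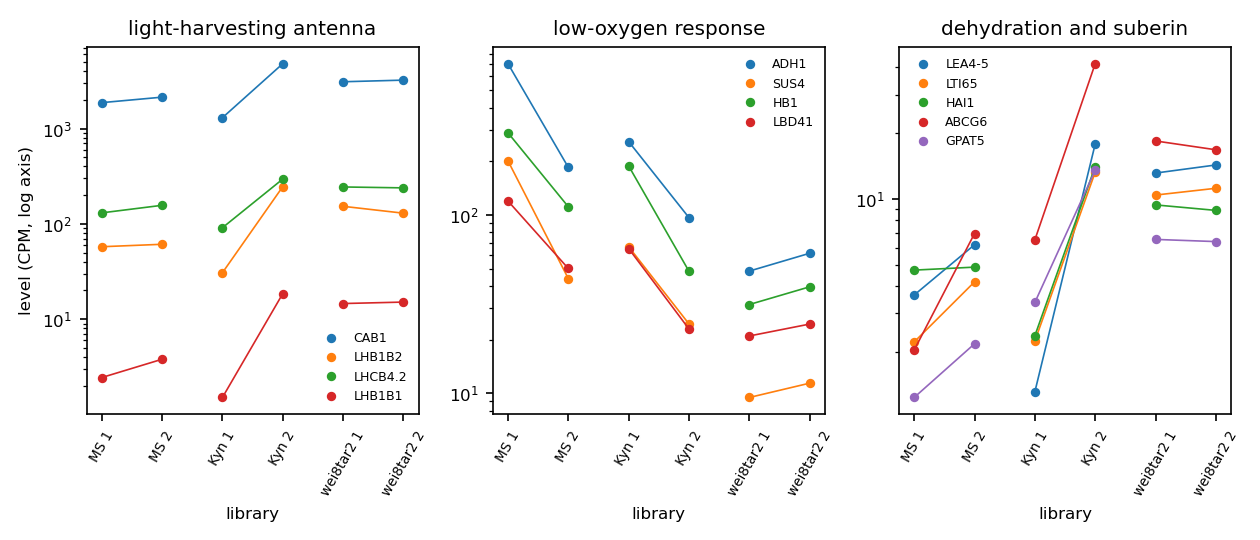
Level in each of the 6 libraries, in CPM on a log axis, of antenna genes (left panel), low-oxygen genes (middle panel) and dehydration and suberin genes (right panel), with lines joining the values of a gene. CAB1 is highest in Col_Kyn replicate 2, ADH1 is highest in Col_MS replicate 1, and LEA4-5 is lowest in Col_Kyn replicate 1.

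Sequence motifs were counted in the 250 bases before the start of 21173 tested genes, on both strands. ACGTG was found in 23.9% of all these windows, in 13 of 25 windows of the abscisic acid list (52%) and in 8 of 19 antenna windows (42.1%). Among called genes it was found in 16 of 47 that fell (34%) and in 12 of the 30 that rose and had a window (40%). CACGTG, which contains ACGTG, was found in 7.22% of all windows and in 5 of 19 antenna windows (26.3%). ACGTG was also found in 7 of 29 lectin (24.1%), 7 of 26 low-oxygen (26.9%) and 7 of 19 suberin windows (36.8%). The auxin response element TGTCTC was found in 10.7% of all windows, in 3 of 47 windows of genes that fell (6.38%) and in 3 of 30 of genes that rose (10%). Among the lists it was found in 0 of 29 lectin, 1 of 25 abscisic acid (4%), 1 of 19 antenna (5.26%), 5 of 26 low-oxygen (19.2%) and 4 of 19 suberin windows (21.1%). A match is a string of letters in this window and was not tested as a binding site.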

How the data were processed

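RNA of whole seedlings was sequenced in 6 libraries. The submitters' processing notes name TopHat 1.3.0 and the genome build TAIR10. Per the file headers, the deposited counts are raw numbers of uniquely mapped reads per gene, so near-identical genes can lose or share reads. No source used here names the counting program or the strand setting. The authors also deposited RPKM values, which equal the counts divided by gene length and library total and were used only to check the counts.

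Counts were joined on the gene identifier, with a gene that a library does not list set to 0. Of 26185 loci with a read, 25911 were found in the RefSeq annotation of TAIR10.1. The 21326 genes that passed edgeR's filterByExpr were fitted over all 3 groups, with no covariate, by the quasi-likelihood test of edgeR 4.0.16 in R 4.3.3, with TMM factors and Benjamini-Hochberg adjustment over all genes tested. DESeq2 1.42.0 and limma 3.58.1 were alternatives, beside no filter, other size factors, the Col-0 libraries alone, a replicate block and leaving out each library. Intervals for counting error cover that error only.

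Named genes are the called genes with a symbol and a mean of at least 4 CPM, up to 15 per direction by size, called members of a written list, called genes with the smallest standard errors, members of the described lists with the smallest p or the highest level, the genes furthest apart between the Col_Kyn replicates at 10 CPM or more, and the target enzymes. The members and lists were chosen with earlier results of these data known, and 4 of the 70 lists were written after gene values were seen.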

Additional observations from a re-analysis of the deposited data

How the results depend on the processing

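Of the 78 genes called by edgeR over all 6 libraries, all 78 were called by DESeq2 and without a low-count filter, 75 with DESeq2's size factors in edgeR, and 47 by limma-voom. The number called was 409 without the filter, 750 by DESeq2, 50 by limma-voom and 0 with only the 4 Col-0 libraries. When 1 library was left out it ran from 0 to 992. The replicate block raised the calls to 130, of which 77 were shared. The correlation of deviations between equally numbered Col_MS and Col_Kyn libraries was 0.202, and 0.0220 and -0.0390 for the other group pairs. The numbers were not taken as pairs because the labels name no shared day or batch. The count of genes more than 2-fold apart between the Col_Kyn replicates was 118 at a minimum of 20 CPM. Among named genes the sign changed for LHB1B1 (-1.05), LHB1B2 (-0.95) and CAB1 (-0.63) without Col_Kyn replicate 2, against 2.57, 2.05 and 1.26 without Col_Kyn replicate 1. It changed for AT4G27450 (0.23) without Col_MS replicate 1, against -1.81 without Col_Kyn replicate 1. It changed for C4H without Col_MS replicate 2 (-0.08) and without Col_Kyn replicate 1 (-0.18), against 0.21 without Col_Kyn replicate 2. For settings that leave out a library, its group is left with 1 library, which is assumed to vary like the other groups. The cause of these differences was not tested. Col_Kyn replicate 2 is the shallowest library and has the widest counting error.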
